A study of Mus musculus with 8 samples.

Results

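The Slc25 family of mitochondrial carriers was followed across mouse embryonic stem (ES) cells and 3 lines of induced pluripotent stem (iPS) cells. Its members were taken by name, as every gene whose symbol on the array begins with Slc25a and that has a probe set with that 1 symbol. This gave 44 genes among the 18193 genes with such probe sets, measured by 93 probe sets. Of the 44, 41 entered the tests, and 37 of these gave a signal above a low-signal floor of 37.1 in all 8 arrays. Slc25a27 and Slc25a35 were above the floor in 7 arrays, Slc25a45 in 6 and Slc25a48 in 2. Slc25a18 and Slc25a41 passed it in 1 array each and Slc25a54 in 0, so these 3 were not tested.

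The groups were an ES cell control and iPS lines 1, 2 and 3, each with 2 arrays that the titles call biological replicates. Every sample was male and of C57BL/6 background, grown in N2B27 medium with mouse LIF and taken between passage 7 and passage 10. The series title describes the iPS cells as integration-free, which means that no reprogramming vector is left in their genome. The ES control is 1 line, each iPS group is 1 line, and the labels name neither the reprogramming factors nor the cells that the iPS lines came from. No label says whether the 2 arrays of a line came from separate cultures, so the p-values reflect array-to-array spread only, and some of it may be technical.

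Slc25 proteins are small carriers of the inner mitochondrial membrane. Each is built from repeats of a short domain with paired membrane-spanning helices and exchanges or carries a particular solute between the cytosol and the matrix, such as ADP for ATP, phosphate, citrate, amino acids, acylcarnitines, nucleotides, cofactors or iron. They are made in the cytosol, kept soluble by small Tim chaperones and inserted by the TIM22 complex. Mouse pluripotent cells run glycolysis beside respiration, and the carriers set which substrates pass between both compartments.

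The cells of all 4 groups carried pluripotency markers. All 10 fixed markers, Pou5f1, Sox2 and Nanog among them, were above the floor in all 8 arrays, and their summed signal lay between 117843 and 130556. Of these 10, 1 was called higher and 2 lower in line 2 against ES cells. In the mean of the lines 0 were called higher and 1 lower, and in lines 1 and 3 limma called 0. iPS line 2 stood apart from the other lines. Its 2 arrays separated from the other 6 on the first principal component, which held 33.7% of the variance. The ratio of the 3' to the 5' actin probe sets was 1.74 to 1.79 in line 2 against 1.49 to 1.62 elsewhere. The same ratio for Gapdh overlapped, at 0.915 to 0.946 in line 2 and 0.856 to 0.935 elsewhere. The summed signal of 12 fibroblast markers was 490.2 to 584 in line 2 and 289.9 to 361 in the other groups, with Col1a1, Postn, Twist2 and Dcn at or under the floor in every array. The rise lay in Pdgfrb, at 246.7 and 177 in line 2 and at most 58.2 elsewhere, the 1 of 6 tested fibroblast markers called there. The summed signal of 7 trophoblast markers was 4035 to 4507 in line 2 and 2277 to 3236 elsewhere. Most of it was Tfap2c, at 3056 and 3556 in line 2, and of 6 tested trophoblast markers Tfap2c and Ascl2 were called higher and Plac1 lower there. In line 1 and in the mean of the lines, 1 trophoblast marker was called higher and 0 lower. Tfap2c gave 1694 and 1532 in ES cells, 2126 and 2495 in line 1, and 2222 and 1793 in line 3. The sum of 8 primitive endoderm markers was 365.8 to 448.6. That of 7 neural markers was 622 to 730.4 in ES cells, 989.8 to 1073 in line 1, 726.4 to 793.9 in line 2 and 1003 to 1036 in line 3. Of 5 tested neural markers, 2 were called higher in line 1 (Tubb3 and Map2), 1 in line 2 (Map2) and 2 in line 3 (Tubb3 and Pax6). Sox1 went the other way without a call, at 94.4 and 70.5 in ES cells and from 13.6 to 58.0 in the iPS arrays. Pax6 gave 52.4 and 49.9 in line 2 and 65.6 and 74.3 in ES cells. The part of RNA quality or of other cell types in the results for any line was not tested. In such bulk RNA, fewer cells of a type and less RNA per cell cannot be told apart.

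The sequence upstream of a start was read from RefSeq for 32 of the 41 tested members, as the 250 bases before it (assembly GRCm38.p6). The 4 windows below belong to some of the members called in the comparisons. Slc25a30, Slc25a33 and Slc25a1 had higher signals in iPS line 2 than in ES cells, and Slc25a20 had lower signals in iPS lines 2 and 3. Capitals mark every match to ACGTG (the core of a hypoxia response element), CACGTG (an E-box, which contains ACGTG on both strands), TGACGTCA (a cyclic AMP response element), GCGCATGC (an NRF1 core), AAGGTCA (an estrogen-related receptor core) or CCAAT, searched on both strands.
Slc25a30, chr14:75787038-75787287, minus strand: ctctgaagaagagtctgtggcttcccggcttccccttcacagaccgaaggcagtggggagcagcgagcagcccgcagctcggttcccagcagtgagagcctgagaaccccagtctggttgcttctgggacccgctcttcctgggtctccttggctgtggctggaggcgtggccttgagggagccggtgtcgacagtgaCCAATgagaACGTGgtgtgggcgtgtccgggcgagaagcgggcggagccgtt
Slc25a33, chr4:149774268-149774517, minus strand: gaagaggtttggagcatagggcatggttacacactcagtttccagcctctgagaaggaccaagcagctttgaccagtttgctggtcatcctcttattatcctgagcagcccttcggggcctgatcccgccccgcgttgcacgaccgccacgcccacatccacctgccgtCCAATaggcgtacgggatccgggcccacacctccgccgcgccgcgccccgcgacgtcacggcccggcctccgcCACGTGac
Slc25a1, chr16:17928220-17928469, minus strand: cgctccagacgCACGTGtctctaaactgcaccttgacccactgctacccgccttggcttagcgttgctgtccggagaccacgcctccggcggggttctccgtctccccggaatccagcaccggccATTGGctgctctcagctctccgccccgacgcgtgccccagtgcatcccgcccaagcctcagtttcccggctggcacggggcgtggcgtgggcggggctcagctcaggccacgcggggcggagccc
Slc25a20, chr9:108661886-108662135, plus strand: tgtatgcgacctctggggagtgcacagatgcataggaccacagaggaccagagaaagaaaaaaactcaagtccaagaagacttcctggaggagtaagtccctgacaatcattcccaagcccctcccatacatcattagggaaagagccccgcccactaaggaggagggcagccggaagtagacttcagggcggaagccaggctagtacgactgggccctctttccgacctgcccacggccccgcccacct
These 32 members have 41 windows, since some have several starts. ACGTG was in 11 of the 41 and in 16.6% of all 32851 windows of this length. Of the members higher in line 2, 5 had a window, and ACGTG was in 3 of them, the Slc25a30, Slc25a33 and Slc25a1 windows shown. It was absent from the windows of Slc25a4 and Slc25a24, which were also higher in line 2 and are not shown. Of the members lower in line 2, 5 had a window, and ACGTG was in 1, that of Slc25a13. The longer CACGTG was in 8 of the 41 windows and in 6.02% of all, and CCAAT was in 20 and in 33.8% of all. TGACGTCA was in 2 (1.55% of all), GCGCATGC in 1 (2.26%) and AAGGTCA in 1 (4.08%). The windows of tested members held a median of 58.0% G and C against 52.4% over all windows. None of the 6 motifs was in the Slc25a20 window, which says only that these letters are absent from these 250 bases.

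Against ES cells, 6 of the 41 tested carriers differed in the mean of the 3 iPS lines, 4 higher and 2 lower. The higher ones were Slc25a24, an ATP-Mg/phosphate carrier, Slc25a30, a kidney-type carrier related to uncoupling proteins, Slc25a46, an outer membrane protein of mitochondrial shape, and Slc25a4, the heart and muscle type of ADP/ATP carrier. The lower ones were Slc25a20, the carnitine and acylcarnitine carrier, and Slc25a13, an aspartate and glutamate carrier known as citrin. Differences are on the scale of log2(signal + 12) and were tested with limma over all 14004 genes, with a call at a Benjamini-Hochberg adjusted p under 0.05. Over all genes the same rule called 4.27% higher and 3.03% lower. The median difference was 0.03 over the 41 members and 0.02 over all genes tested. Without iPS line 2, Slc25a4, Slc25a13, Slc25a20 and Slc25a24 were still called, at 0.19, -0.35, -0.36 and 0.97, while Slc25a30 stood at 0.10 (adjusted p = 0.696) and Slc25a46 at 0.17 (adjusted p = 0.327). With the 3 line means as the samples, or without an intensity trend in the variance, limma called 0 members in this comparison. With line means the ES control is 1 sample, so that count cannot be read as a result about the carriers.

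The single lines differed in how many carriers moved, as they did over all genes. In iPS line 1, 1 member was higher and 1 was lower than in ES cells (1.21% and 1.12% of all genes). In line 2, 8 were higher and 7 were lower (19.5% and 17.1% of those tested, 16.1% and 10.6% of all genes). In line 3, 1 was higher and 2 were lower (1.58% and 2.57% of all genes). After centring each array on its median, line 1 had 1 higher and 0 lower, and line 3 had 0 higher and 1 lower. Without an intensity trend, limma called 0 members in lines 1 and 3. The members' median difference in line 2 was 0.05 against 0.07 over all genes, and the median size of the difference was 0.35 against 0.28. Slc25a13 was the 1 member called in all 3 lines, and these comparisons share the same ES arrays. Of the 41 tested members, 18 were called in none of the 7 comparisons made. No share over all genes is given for either count.

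**Figure D1:**
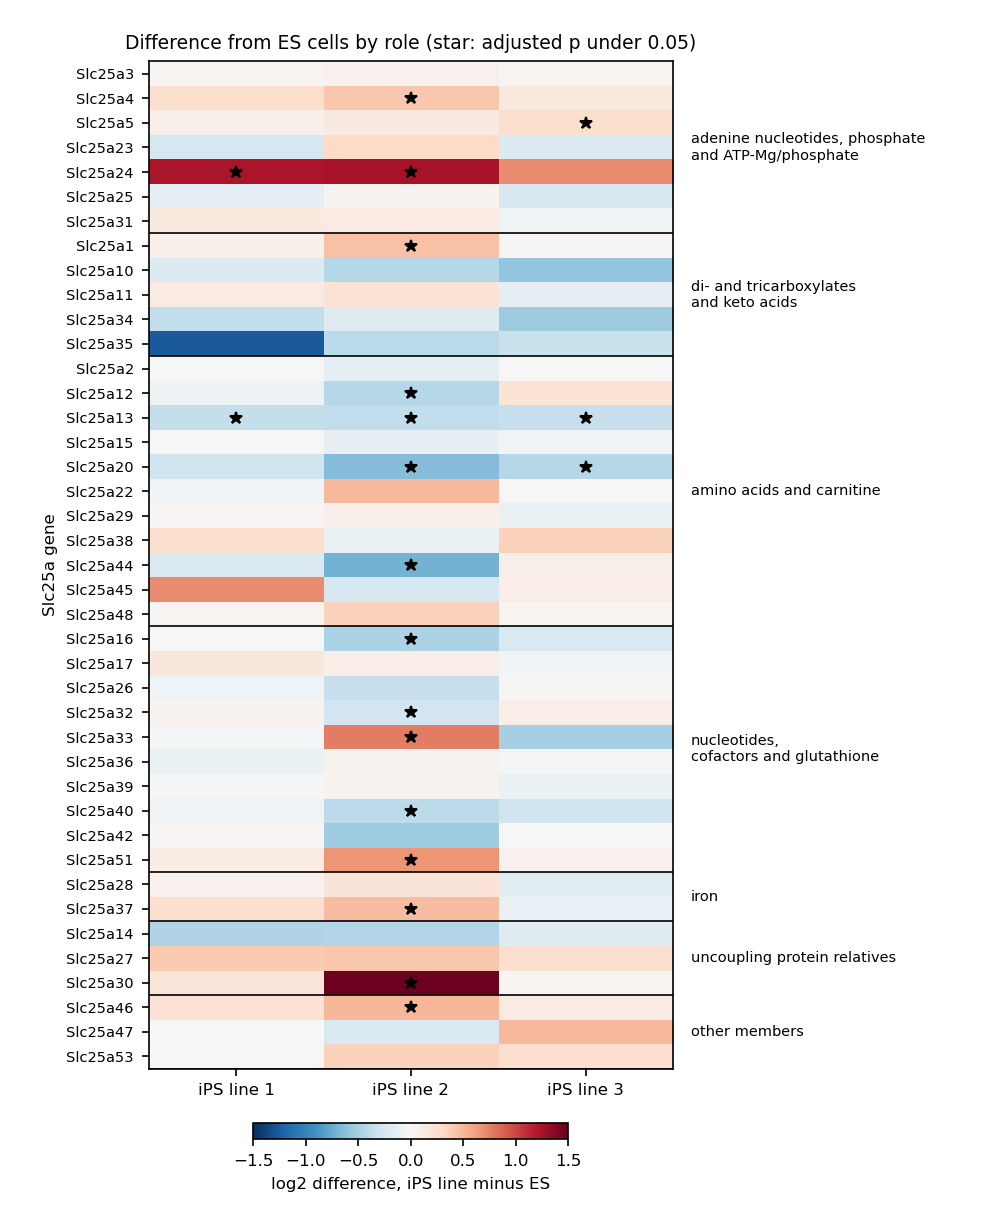
Difference of each iPS line from ES cells for the 41 tested Slc25a genes, as a colour scale of log2(signal + 12), with genes in rows grouped by what they carry, lines in columns and stars at an adjusted p under 0.05. Line 2 holds 15 stars, line 1 holds 2 and line 3 holds 3, and Slc25a13 has one in each line.

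Among the carriers of adenine nucleotides and phosphate, 7 of 8 were tested. In line 2 Slc25a4 and Slc25a24 were higher and 0 were lower (16.1% and 10.6% of all genes). Slc25a4 exchanges ADP for ATP. Its signals were 7571 and 7393 in ES cells, 9032 and 8636 in iPS line 1, 10641 and 9154 in line 2, and 8229.5 and 8332 in line 3. Both ES arrays lay below each of the 6 iPS arrays. Against ES cells, the lines' mean was higher by 0.26 ± 0.06 (SE; adjusted p = 0.0137), line 2 by 0.40 ± 0.07 (adjusted p = 0.00102), and lines 1 and 3 did not pass the test at 0.24 and 0.15. The call in the mean was lost without ES replicate 1 (0.28, adjusted p = 0.105) and without ES replicate 2 (0.24, adjusted p = 0.136). Of its 3 other probe sets, 2 pointed the same way in line 2 and 1, with signals of 5.33 to 51.3, was at -1.11. Averaging the probe sets ended both calls, at 0.04 in line 2 (adjusted p = 0.785) and 0.01 in the mean (adjusted p = 0.970).

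Slc25a5 is the ADP/ATP carrier of dividing cells. Its signals were 19846 and 21409 in ES cells, 22255 and 21119 in line 1, 23333 and 21877 in line 2, and 24527 and 24045 in line 3. The line 3 arrays were the highest, those of line 2 lay just above both ES arrays, and those of line 1 overlapped them. Line 3 was higher by 0.24 ± 0.06 (adjusted p = 0.0399), and its 7 other probe sets had the same sign, from 0.14 to 0.46. That call was lost without either ES array (0.18 without replicate 1 and 0.29 without replicate 2) and without either line 3 array (0.22 and 0.25). It was also lost after centring (0.28), without the low-signal filter (adjusted p = 0.0861) and without probe sets that can bind several transcripts (0.21). The probe set used may also bind near-identical copies of the gene, so the value is uncertain.

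Slc25a24 is held to carry ATP-Mg in exchange for phosphate under the control of calcium. Its signals were 91.0 and 81.2 in ES cells, 271 and 173 in line 1, 206 and 232 in line 2, and 126 and 173 in line 3. Every iPS array lay above both ES arrays, and the arrays of line 1 were far apart. The mean of the iPS lines was 2.08-fold the ES level (log2 difference 1.06 ± 0.19, adjusted p = 0.00499). Line 1 was higher by 1.22 ± 0.23 (adjusted p = 0.0165) and line 2 by 1.23 ± 0.23 (adjusted p = 0.00189), while line 3 stood at 0.71 ± 0.23 (adjusted p = 0.128). The call in the mean was lost without ES replicate 2 (0.98, adjusted p = 0.0653). That in line 1 was lost without ES replicate 1 (1.30, adjusted p = 0.0776), ES replicate 2 (1.15, adjusted p = 0.115) or line 1 replicate 1 (0.92, adjusted p = 0.172).

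The phosphate carrier Slc25a3 and the germ cell type of ADP/ATP carrier Slc25a31 did not pass the test in any comparison. Signals of Slc25a3 ran from 22618 to 26272. Lines 1 and 2 overlapped ES cells and line 3 lay above them. Its mean difference was 0.05, with a 95% interval from -0.08 to 0.18. Slc25a31 gave 119 and 137 in ES cells, 174 and 117 in line 1, 133 and 147 in line 2, and 125 and 119 in line 3. Its mean difference was 0.07, with an interval from -0.33 to 0.47, so a modest difference in either direction was not detectable with these arrays. The other ATP-Mg/phosphate carriers, Slc25a23 and Slc25a25, had mean differences of -0.06 and -0.11 and passed no test. Slc25a41, a further one, was not tested, with signals from 2.32 to 37.2.

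**Figure D2:**
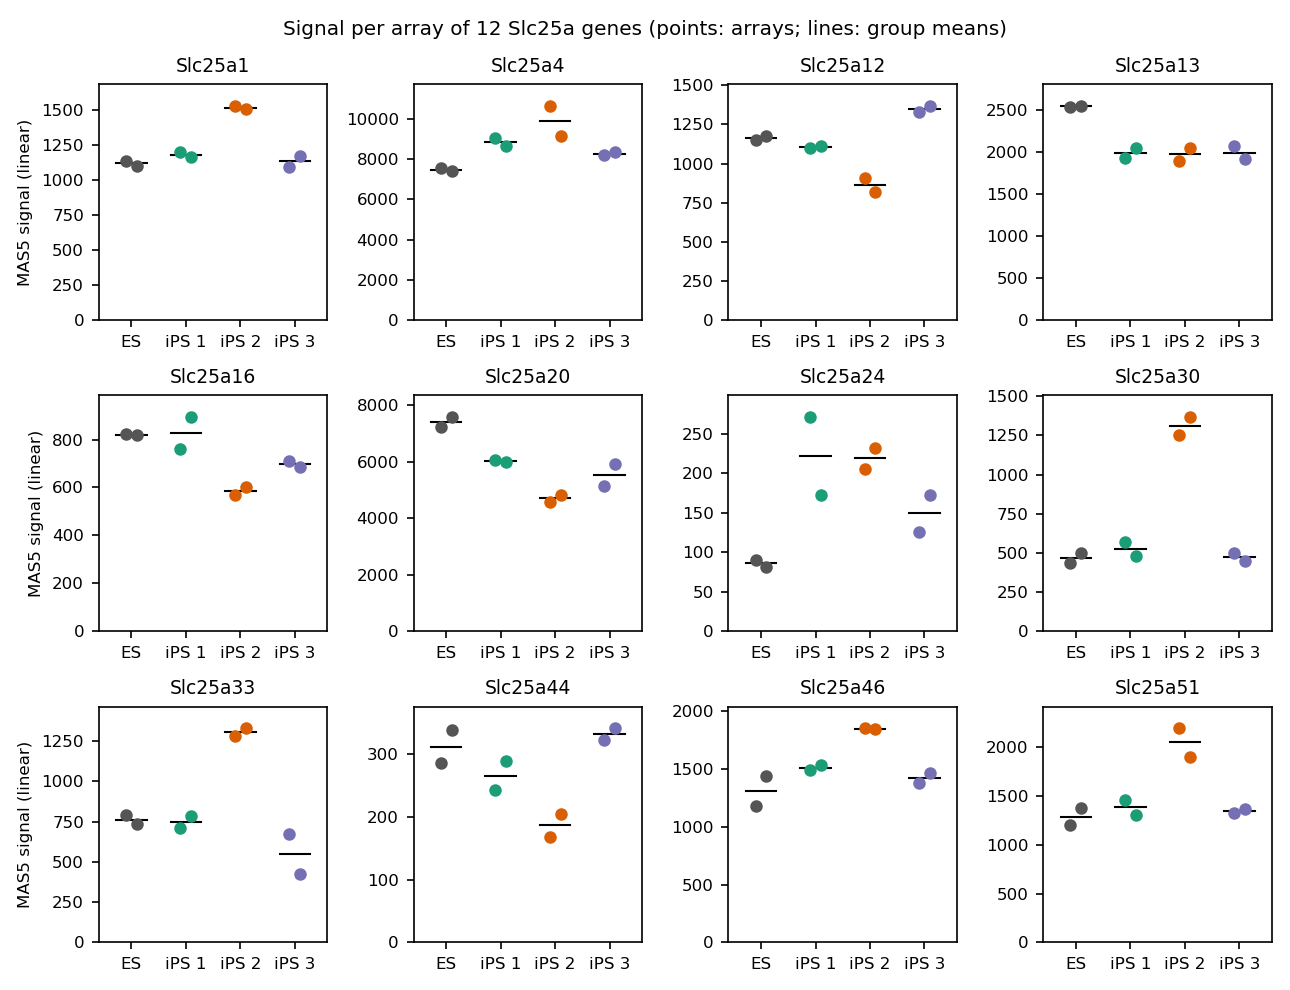
Signal per array, on a linear axis from 0, of the 12 Slc25a genes with the smallest adjusted p in a comparison with ES cells; points are arrays and lines are group means of 2 arrays. The line 2 points of Slc25a30 lie at 1254 and 1368 while all other points of that gene lie between 434 and 573, and the ES points of Slc25a13 lie above those of every iPS array.

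Among the 5 carriers of di- and tricarboxylates, Slc25a1 was higher in line 2 and 0 were lower there (16.1% and 10.6% of all genes). Slc25a1 exports citrate, the source of cytosolic acetyl groups. Its signals were 1135 and 1102 in ES cells, 1199 and 1163 in line 1, 1529 and 1506 in line 2, and 1095 and 1173 in line 3. The line 2 arrays lay above all 6 others, line 3 overlapped ES cells, and line 1 lay just above them. Line 2 was higher by 0.44 ± 0.08 (adjusted p = 0.0013) against ES cells. Slc25a11, the oxoglutarate and malate carrier, was not called against ES cells in any line. The dicarboxylate carrier Slc25a10 had signals from 135 to 315 and a mean difference of -0.41 ± 0.23 (adjusted p = 0.328). The members Slc25a34 and Slc25a35, whose substrates are not well known, did not pass the test, and Slc25a35 was at 12.2 in line 1 replicate 1 against 57.6 or more in the other arrays.

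Among the carriers of amino acids and carnitine, 11 of 12 were tested. In line 2, 0 were higher and 4 were lower (16.1% and 10.6% of all genes). The median difference there was -0.15 over the 11 and 0.07 over all genes. In the mean of the iPS lines, 0 were higher and 2 were lower (4.27% and 3.03% of all genes).

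Slc25a20 carries acylcarnitines into the matrix for fatty acid oxidation. Its signals were 7242 and 7582 in ES cells, 6073 and 6004 in line 1, 4573 and 4835 in line 2, and 5141 and 5925 in line 3. Both ES arrays lay above each of the 6 iPS arrays, with line 2 lowest. The mean of the iPS lines was lower by 0.46 on the log2 scale (SE 0.06, adjusted p = 0.000424), a fold of 1.37. Line 2 stood at -0.65 ± 0.07 (adjusted p = 3.19e-05), line 3 at -0.42 ± 0.07 (adjusted p = 0.00544) and line 1 at -0.29 ± 0.07, which missed the threshold (adjusted p = 0.0528). Its other probe set gave -0.75 in line 2 and -0.47 in line 3. The line 3 call was lost without ES replicate 2 (-0.39, adjusted p = 0.0637) or line 3 replicate 1 (-0.32, adjusted p = 0.0579).

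Both aspartate and glutamate carriers of the malate-aspartate shuttle are in the family. Slc25a13 gave 2536 and 2545 in ES cells, 1928 and 2051 in line 1, 1896 and 2045 in line 2, and 2071 and 1912 in line 3. The 6 iPS arrays overlapped each other and all lay below the ES arrays. The differences were -0.35, -0.37 and -0.35 in lines 1, 2 and 3 (SE 0.07; adjusted p = 0.0277, 0.00295 and 0.0201). The line 2 call held without any 1 array. The call in the mean was lost without ES replicate 1 (-0.36, adjusted p = 0.0626) or ES replicate 2 (-0.35, adjusted p = 0.0553), and so were those in lines 1 and 3 (-0.35 in each case, adjusted p from 0.125 to 0.172). The line 1 call was also lost without line 1 replicate 1 (-0.31) or replicate 2 (-0.40), and the line 3 call without line 3 replicate 2 (-0.29). After centring, lines 1 and 3 stood at -0.32 and -0.30 and were not called.

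Slc25a12, known as aralar, gave 1152 and 1176 in ES cells, 1097 and 1114 in line 1, 911 and 822 in line 2, and 1328 and 1367 in line 3. Line 2 was below all other arrays and line 3 above them. Line 2 was lower than ES cells by 0.42 on the log2 scale (SE 0.08, adjusted p = 0.00232). Its probe sets disagreed: of the 2 others, 1 was at 0.42 in the same comparison and 1 at -0.04. Averaging them ended the call (-0.01, adjusted p = 0.967).

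Slc25a44, a carrier of branched-chain amino acids, gave 285 and 338 in ES cells, 242 and 289 in line 1, 168 and 204 in line 2, and 322 and 341 in line 3. Line 2 lay below every other array. Its difference from ES cells was -0.71 ± 0.16 (adjusted p = 0.00566), with -1.13 and -0.25 at its 2 other probe sets, and -0.59 (adjusted p = 0.0595) without ES replicate 2. The probe set at -1.13 was dim and overlapped, at 5.73 and 69.9 in line 2 and 85.6 and 58.8 in ES cells. Averaging the probe sets of Slc25a44 gave -0.70 (adjusted p = 0.0606). The ornithine carrier Slc25a15 had signals from 2581 to 2927 and a mean difference of -0.06, with a 95% interval from -0.17 to 0.06. The glycine carrier Slc25a38, the glutamate carrier Slc25a22 and the basic amino acid carrier Slc25a29 were not called against ES cells in any line. The glutamate carrier Slc25a18, under the floor in 7 arrays, gave from 6.62 to 41.6. Slc25a2, Slc25a45 and Slc25a48 did not pass in any comparison.

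Among the 10 carriers of nucleotides, cofactors and glutathione, 2 were higher and 3 were lower in line 2 (16.1% and 10.6% of all genes). In lines 1 and 3 and in the mean, 0 were called. Slc25a33 carries pyrimidine nucleotides. It gave 788 and 736 in ES cells, 708 and 787 in line 1, 1279 and 1331 in line 2, and 675 and 427 in line 3. Line 2 lay above all other arrays, and the line 3 arrays lay below them and apart from each other. Line 2 was 1.70-fold the ES level (0.77 ± 0.16, adjusted p = 0.00341), and line 3 stood at -0.49 (adjusted p = 0.12). The other pyrimidine nucleotide carrier, Slc25a36, had signals from 9091 to 10404 and stood at 0.05 in line 2, with a 95% interval from -0.07 to 0.17. Its dimmer probe sets were higher there, at 0.44 and 0.37, and were not tested singly, so its level in line 2 is uncertain.

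Slc25a51 brings NAD into the matrix. It gave 1199 and 1375 in ES cells, 1459 and 1309.9 in line 1, 2197 and 1899.6 in line 2, and 1322 and 1368 in line 3. Line 2 lay above the other 6 arrays, which overlapped. It was higher by 0.67 ± 0.10 (adjusted p = 0.00029) against ES cells, with 0.26 and 0.53 at its 2 other probe sets.

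The lower members were Slc25a16, which has been linked to coenzyme A transport, Slc25a40, a glutathione carrier, and Slc25a32, a folate carrier. Slc25a16 gave 825 and 817 in ES cells, 759 and 894 in line 1, 568 and 603 in line 2, and 710.1 and 686 in line 3. Line 2 was lowest, and its difference was -0.48 ± 0.10 (adjusted p = 0.0038). Slc25a40 stood at -0.39 ± 0.10 in line 2 (adjusted p = 0.0134), and its call was lost without ES replicate 1 (-0.40), ES replicate 2 (-0.38) or line 2 replicate 1 (-0.26). Slc25a32 stood at -0.28 ± 0.09 (adjusted p = 0.0387). Its call was lost without ES replicate 1 (-0.22), ES replicate 2 (-0.35), line 2 replicate 1 (-0.32) or replicate 2 (-0.25), or either line 3 array (adjusted p = 0.0512 and 0.0510). Averaging its probe sets (-0.49, adjusted p = 0.104) and fitting only the groups compared (adjusted p = 0.0662) also ended it. Without an intensity trend, the line 2 calls of Slc25a32, Slc25a33 and Slc25a40 were lost (adjusted p = 0.0664, 0.0641 and 0.0884). The other glutathione carrier, Slc25a39, ranged from 11999 to 14065 and stood at 0.05 in line 2, with a 95% interval from -0.07 to 0.17. Slc25a17, a peroxisomal cofactor carrier, Slc25a26 and the coenzyme A carrier Slc25a42 were not called against ES cells in any line.

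Both iron carriers, the mitoferrins Slc25a37 and Slc25a28, were tested. Slc25a37 gave 208 and 239 in ES cells, 262 and 269 in line 1, 335 and 289 in line 2, and 218 and 199 in line 3. Line 2 was highest and line 3 overlapped ES cells. Line 2 was higher by 0.46 ± 0.15 (adjusted p = 0.0394), a call lost without either ES array (0.37 without replicate 1 and 0.56 without replicate 2) or either line 2 array (0.36 and 0.57). It was also lost after quantile normalization (0.30), after centring (0.37), without the low-signal filter (adjusted p = 0.0693) and with only the groups compared (adjusted p = 0.0538). Slc25a28 gave 604 and 650.4 in ES cells, 699.6 and 612 in line 1, 754 and 682 in line 2, and 555 and 565 in line 3. It was not called against ES cells, and its difference in line 2 was 0.19, with a 95% interval from -0.04 to 0.42.

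Of the 3 relatives of uncoupling proteins, Slc25a30 carried the largest difference among the members called in line 2. It gave 434 and 497 in ES cells, 573 and 484 in line 1, 1254 and 1368 in line 2, and 499.8 and 447 in line 3. The line 2 arrays stood far above the other 6, which overlapped. Line 2 was 2.77-fold the ES level (1.47 ± 0.12, adjusted p = 2.96e-06), and its 2 other probe sets stood at 0.70 and 1.20. Lines 1 and 3 stood at 0.18 and 0.02 and did not pass. The call in the mean of the lines (0.56 ± 0.10, adjusted p = 0.00383) came with overlapping groups and was lost without ES replicate 1 (0.46, adjusted p = 0.0946). Slc25a14 and Slc25a27 did not pass, at -0.36 and 0.35 in the mean.

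Slc25a46 sits in the outer membrane and acts in mitochondrial fission and cristae shape. It gave 1180.0 and 1437 in ES cells, 1486 and 1535 in line 1, 1853 and 1839.8 in line 2, and 1381 and 1467 in line 3. Line 2 lay above every other array, and line 3 overlapped the ES range. Line 2 was higher by 0.50 ± 0.09 (adjusted p = 0.00161), with 0.23 at its other probe set. The call in the mean (0.28 ± 0.08, adjusted p = 0.0434, groups overlapping) was lost without ES replicate 1 (0.14, adjusted p = 0.507) or without any 1 of the 6 iPS arrays (0.27 to 0.29, adjusted p from 0.0576 to 0.0851). It was also lost after centring (0.28), with probe sets averaged (0.22) and without the low-signal filter (adjusted p = 0.0544). Slc25a47 and Slc25a53 did not pass against ES cells in any line, and Slc25a54 was under the floor in all arrays (3.86 to 34.6).

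Among the iPS lines themselves, line 2 differed most in these carriers, as it did over all genes. The median size of the difference was 0.23 over members and 0.27 over all genes against line 1. Against line 3 it was 0.32 and 0.31. Against line 1, 6 members were higher and 7 were lower (14.6% and 17.1% of those tested, 13.8% and 9.52% of all genes). Against line 3, 11 were higher and 7 were lower (26.8% and 17.1% of those tested, 19.0% and 12.1% of all genes). Both comparisons share the line 2 arrays. Between lines 1 and 3, limma called 0 members in either direction (1.04% and 0.350% of all genes), and 8 had an unadjusted p under 0.05. The 3 with the smallest adjusted p there were Slc25a12 at -0.28, Slc25a33 at 0.46 and Slc25a5 at -0.16 (adjusted p = 0.132, 0.207 and 0.217). After centring each array on its median, line 2 had 3 higher and 9 lower against line 1 and 4 higher and 9 lower against line 3, with the median of all genes shifted by -0.12 and -0.13. After quantile normalization, 7 were higher and 7 were lower against line 3.

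Among the members called in both pairs, the largest mean differences were those of Slc25a30, Slc25a33, Slc25a44 and Slc25a51. Slc25a30 was higher in line 2 by 1.30 ± 0.12 against line 1 (adjusted p = 1.66e-05) and by 1.45 ± 0.12 against line 3 (adjusted p = 2.6e-06). Slc25a33 was higher by 0.80 ± 0.16 (adjusted p = 0.00336) and by 1.26 ± 0.16 (adjusted p = 8.09e-05). Slc25a51 was higher by 0.56 ± 0.10 and by 0.60 ± 0.10 (adjusted p = 0.00133 and 0.000483). Slc25a44 stood at -0.49 ± 0.16 against line 1 (adjusted p = 0.0449) and at -0.80 ± 0.16 against line 3 (adjusted p = 0.00217). Its call against line 1 was lost without ES replicate 2 (adjusted p = 0.0512), line 1 replicate 1 (-0.61) or replicate 2 (-0.36), line 2 replicate 1 (-0.35), or either line 3 array (adjusted p = 0.0575 and 0.0579).

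Slc25a1 and Slc25a46 were also higher in line 2 than in lines 1 and 3, at 0.36 and 0.42 for Slc25a1 (adjusted p = 0.0056 and 0.00139) and 0.29 and 0.37 for Slc25a46 (adjusted p = 0.0407 and 0.00827). The glutamate carrier Slc25a22 stood at 0.52 and 0.48 (adjusted p = 0.0448 and 0.0481). The call of Slc25a46 against line 1 was lost without either line 1 array (0.26 and 0.31), either line 2 array (0.28 and 0.29) or line 3 replicate 2 (0.29), and its other probe set was at -0.02. The call against line 3 was lost without line 3 replicate 1 (0.33). The calls of Slc25a22 were lost without either ES array (adjusted p from 0.053 to 0.0565), either line 3 array (0.52 against line 1, 0.50 and 0.47 against line 3) or line 2 replicate 2 (0.36 and 0.32). They were also lost without either line 1 array, at 0.43 and 0.61 against line 1 and at adjusted p = 0.0519 and 0.0531 against line 3.

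Lower in both pairs were Slc25a12, Slc25a20, Slc25a32 and Slc25a38. The aralar gene Slc25a12 stood at -0.35 against line 1 and -0.63 against line 3 (adjusted p = 0.00899 and 0.000105), and the carnitine carrier Slc25a20 at -0.36 and -0.23 (adjusted p = 0.00302 and 0.026). Against line 1, both other probe sets of Slc25a12 pointed upwards, at 0.39 and 0.47. Its call against line 1 was lost without line 1 replicate 2 (-0.34) or line 2 replicate 2 (-0.28), and that of Slc25a20 against line 3 without line 2 replicate 1 (-0.19) or line 3 replicate 2 (-0.13). The folate carrier Slc25a32 stood at -0.33 and -0.38 (adjusted p = 0.0204 and 0.00713), and the call against line 1 was lost without line 1 replicate 1 (-0.32) or 2 (-0.35) or line 2 replicate 2 (-0.30).

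The glycine carrier Slc25a38, needed for haem synthesis, stood at -0.36 and -0.45 (adjusted p = 0.0447 and 0.0114). Its call against line 1 was lost without either ES array, either line 3 array (adjusted p from 0.0582 to 0.0614), either line 2 array (-0.44 and -0.28) or line 1 replicate 1 (-0.21). Its call against line 3 was lost without line 2 replicate 2 (-0.37) or either line 3 array (-0.46 and -0.45). Both members called against line 1 only, Slc25a16 and Slc25a40, stood at -0.49 and -0.34 (adjusted p = 0.00439 and 0.0306). The first was lost without line 1 replicate 2 (-0.37), and the second without line 1 replicate 1 (-0.33) or 2 (-0.35) or line 2 replicate 1 (-0.21).

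The members called against line 3 only were Slc25a4, Slc25a11, Slc25a28, Slc25a37 and Slc25a39, higher in line 2, and Slc25a26 and Slc25a47, lower in line 2. The mitoferrins stood at 0.56 for Slc25a37 and 0.35 for Slc25a28 (adjusted p = 0.0138 and 0.0239), the ADP/ATP carrier Slc25a4 at 0.25 (adjusted p = 0.014) and the oxoglutarate carrier Slc25a11 at 0.35 (adjusted p = 0.0128). Slc25a39 stood at 0.15 (adjusted p = 0.0494), the S-adenosylmethionine carrier Slc25a26 at -0.37 (adjusted p = 0.0399) and Slc25a47 at -0.72 (adjusted p = 0.0378). Each of these 7 calls was lost without at least 1 of the line 2 or line 3 arrays. The values that lost their call ran from 0.45 to 0.49 for Slc25a37 (without line 2 replicate 1 or line 3 replicate 2), from 0.28 to 0.36 for Slc25a28 (without line 2 replicate 1 or either line 3 array) and from 0.14 to 0.26 for Slc25a4 (the same 3 arrays). They were 0.29 and 0.29 for Slc25a11 (without line 2 or line 3 replicate 2), from 0.10 to 0.17 for Slc25a39 (without any 1 array but line 3 replicate 1), from -0.42 to -0.26 for Slc25a26 (without either ES array, either line 2 array or line 3 replicate 1) and from -0.81 to -0.62 for Slc25a47 (without any 1 of the 4 arrays compared).

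Several calls between lines also ended under another setting. After centring, Slc25a1 stood at 0.23, Slc25a22 at 0.40 and Slc25a46 at 0.16 against line 1. Against line 3, centring left Slc25a4 at 0.12, Slc25a11 at 0.21, Slc25a22 at 0.35, Slc25a28 at 0.22, Slc25a37 at 0.42, Slc25a39 at 0.02 and Slc25a46 at 0.24, none called. Quantile normalization ended the call of Slc25a22 against line 1 (0.36) and, against line 3, those of Slc25a11 (0.26), Slc25a20 (-0.15), Slc25a22 (0.28), Slc25a28 (0.24) and Slc25a37 (0.36). With probe sets averaged, Slc25a12 turned to 0.17, and Slc25a32 (-0.45), Slc25a44 (-0.44) and Slc25a46 (0.13) lost their calls against line 1. The same setting left Slc25a4 at 0.15, Slc25a12 at -0.14, Slc25a39 at 0.01 and Slc25a44 at -0.49 against line 3, none called.

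Without an intensity trend, the calls of Slc25a20, Slc25a22, Slc25a32, Slc25a33, Slc25a38, Slc25a40, Slc25a44 and Slc25a46 against line 1 were lost. Against line 3, those of Slc25a4, Slc25a11, Slc25a20, Slc25a22, Slc25a26, Slc25a28, Slc25a38, Slc25a39 and Slc25a46 were lost. Without the low-signal filter, Slc25a22, Slc25a38, Slc25a44 and Slc25a46 against line 1 and Slc25a22, Slc25a26, Slc25a39 and Slc25a47 against line 3 missed the threshold (adjusted p from 0.0507 to 0.0884). With only the groups compared, so did Slc25a22 and Slc25a38 against line 1 and Slc25a20, Slc25a22, Slc25a26 and Slc25a39 against line 3 (adjusted p from 0.0558 to 0.0861). Without probe sets that can bind several transcripts, Slc25a26 (-0.45) and Slc25a39 (0.04) lost their calls against line 3. A pseudocount of 1 also ended that of Slc25a39.

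**Figure D3:**
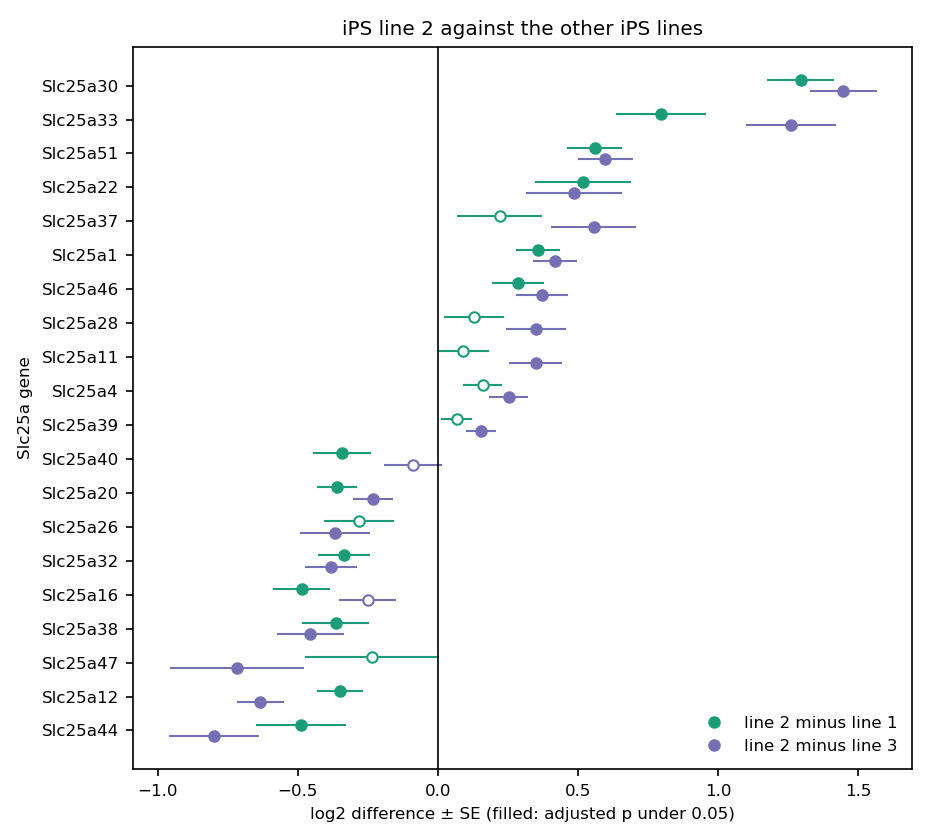
Log2 difference with its SE between iPS line 2 and the other iPS lines, for the 20 Slc25a genes called in a comparison between lines; filled points have an adjusted p under 0.05. Slc25a30 stands at 1.30 and 1.45, and Slc25a44 at -0.49 and -0.80, at opposite ends.

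Other mitochondrial channels and carriers were listed beside the family. Of 15 tested channels and carriers outside it, line 2 had 2 higher and 2 lower (16.1% and 10.6% of all genes). The higher ones were Mcu, the calcium uniporter pore, at 0.64 and Micu2, its regulator, at 0.39. The lower ones were Mpc1 at -0.90 and Sfxn2, a sideroflexin, at -0.74. Mpc1, a subunit of the mitochondrial pyruvate carrier, gave 1929 and 1871 in ES cells, 1001 and 1010.2 in line 1, 1016 and 1013 in line 2, and 1078 and 1060.2 in line 3. Every iPS array lay far below both ES arrays. The differences were -0.91, -0.90 and -0.82 in lines 1, 2 and 3 (SE 0.08; adjusted p = 4.59e-05, 4.31e-06 and 0.000176), and each held under the 18 alternative settings tried on it. The call of Micu2 was lost without either ES array or either line 2 array, and after centring or quantile normalization. Of the family members with other symbols, 3 were tested in line 2 and limma called 0. Among them Ucp3, an uncoupling protein, stood at -0.79 (adjusted p = 0.0682), and it was the 1 with an unadjusted p under 0.05.

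Of 13 tested genes that import carriers into the inner membrane, line 2 had 1 higher and 7 lower (16.1% and 10.6% of all genes). Their median was -0.26 against 0.07 over all genes. The lower ones were Timm10 (-0.50) and Timm8a1 (-0.28), small chaperones, Timm22 (-0.35) and Timm29 (-0.51) of the TIM22 complex, and Tomm22 (-0.26), Tomm40 (-0.29) and Tomm70a (-0.30) of the outer membrane entry gate. The higher one was the chaperone Timm9 at 0.44. Without ES replicate 2, 3 were lower and 1 was higher, without line 2 replicate 2, 4 and 1, and without an intensity trend, 2 and 1. Averaging a gene's probe sets left 5 lower and 0 higher. The call of Timm9 was also lost after centring, after quantile normalization, and without either ES array or line 2 replicate 1. In line 3 the same list had 2 higher and 0 lower (1.58% and 2.57% of all genes). In line 1 limma called 0 of the 13, with 3 at an unadjusted p under 0.05.

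Of 24 tested enzymes that use the carried substrates, line 2 had 8 higher and 2 lower (16.1% and 10.6% of all genes). The higher ones included Mthfd2 of mitochondrial folate metabolism (0.78), Cpt1a of acylcarnitine synthesis (0.56), Cpt2, its matrix partner (0.75), and Oat of ornithine metabolism (0.44). The lower ones were Ass1 of arginine synthesis (-1.40) and Ppat of purine synthesis (-0.67). Ass1 was dim, at 118 and 105 in ES cells and 39.7 and 30.7 in line 2, with line 2 replicate 2 under the floor. Without ES replicate 2, 5 were higher, and after centring on the median, 5. Cpt1a gave 1994 and 1801 in ES cells, 1797 and 1627 in line 1, 2856 and 2749 in line 2, and 1235 and 1307 in line 3. Line 2 lay above and line 3 below all others. Its differences from ES cells were 0.56 ± 0.08 in line 2 (adjusted p = 0.000271) and -0.57 ± 0.08 in line 3 (adjusted p = 0.00191). Both calls were lost when its probe sets were averaged, and the line 3 call also without an intensity trend.

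Of 23 tested genes of glycolysis and the hypoxia response, line 2 had 21 higher and 0 lower (16.1% and 10.6% of all genes). Their median was 1.01 against 0.07 over all genes. Bnip3, a mitophagy receptor, stood at 2.74, and Ndrg1 at 3.41, Ero1a at 1.86 and Egln3, an oxygen sensor, at 2.09. Line 1 had 7 higher and 0 lower (1.21% and 1.12% of all genes). Line 3 had 1 higher and 8 lower (1.58% and 2.57% of all genes). The count of 21 in line 2 also held after quantile normalization, after centring and without any 1 array. Pdgfrb, Tfap2c and the actin ratio given above were higher in the same 2 arrays.

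**Figure D4:**
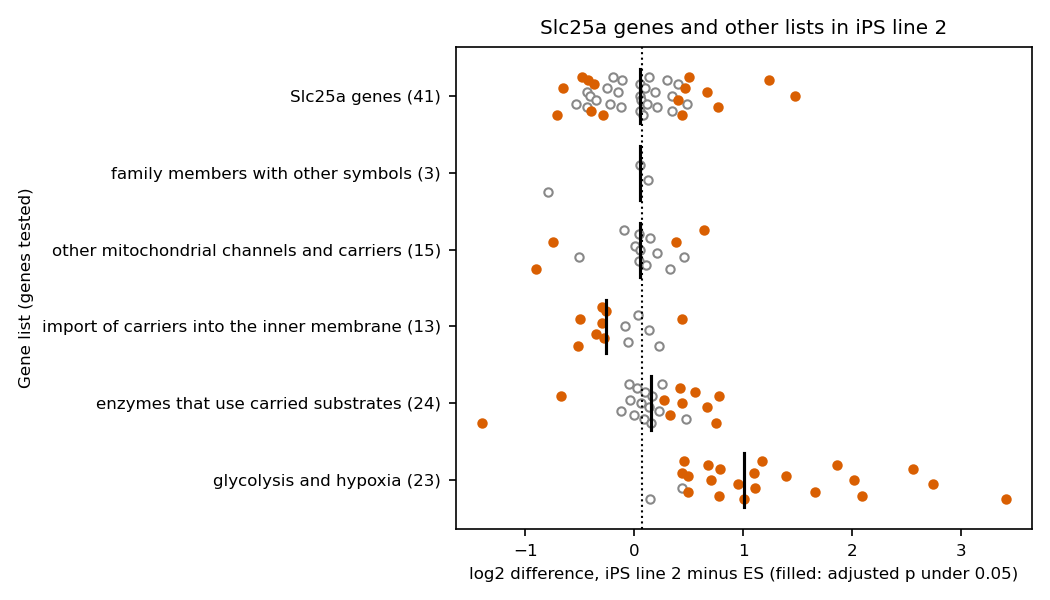
Log2 difference between iPS line 2 and ES cells for the tested genes of each list, 1 point a gene; filled points have an adjusted p under 0.05, thick bars are list medians and the dotted line is the median of all 14004 genes (0.07). Slc25a genes spread to both sides (median 0.05), genes of glycolysis and hypoxia lie to the right (median 1.01) and the import list lies to the left (median -0.26).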

How the data were processed

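RNA of 8 samples was measured on Affymetrix arrays, in 4 groups of 2. Each deposited value is an intensity of a probe set on a linear scale. The authors computed it with MAS5, according to the submitters' processing notes, which give no version. The mean signal, trimmed by 2% at each end, was 500.004 in every array, so no scaling was added. The platform annotation gave 1 symbol to 34945 of 45101 probe sets, several to 932 and none to 9160, and 64 were controls. The 93 probe sets of the family have the same symbol in RefSeq, and 1 more with several symbols was left out.

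A pseudocount of 12, the rounded 20th percentile of the signals, was added before taking log2, so that folds of dim genes come out too small. Probe sets above 37.1 (the 40th percentile) in at least 2 arrays were kept, and the brightest on average stood for its gene. Of the members, 18 had more than 1 such probe set. A group-means model over all arrays was fitted with limma 3.58.1 (R 4.3.3; lmFit, and eBayes with an intensity trend, two-sided), which left 4 residual degrees of freedom and 12.3 after moderation. Adjustment was by Benjamini-Hochberg over 14004 genes. The code was tested on simulated data. The number of arrays limits the precision.

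Named with values in every array were the members called against ES cells (the 12 with the smallest adjusted p where more were called), the 4 with the largest mean fold between line 2 and the other lines among those called in both pairs, the 3 with the smallest adjusted p between lines 1 and 3, and Slc25a3, Slc25a4, Slc25a5, Slc25a28, Slc25a31 and Slc25a37. Other members are given by role. Of each further list, up to 4 genes with the smallest adjusted p were to be named; the remaining import genes called in line 2, Cpt2 and Ass1 were named after their values were seen. The members, roles and gene lists were chosen with earlier results of these data known. Alternatives were quantile normalization, centring, other pseudocounts and filters, other probe set rules, no intensity trend, the replicate block, only the groups compared, and leaving out arrays or line 2.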

Additional observations from a re-analysis of the deposited data

Results flagged for a closer look

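A difference between iPS lines was called for 20 of the 41 tested members, each from the test of that difference itself in limma. Over all genes, line 2 against line 3 alone gave 19.0% higher and 12.1% lower. No share of all genes called in any pair is given, so the count of 20 cannot be read as a trait of the family. Of the higher ones in iPS line 2, with line 3 as the reference, the log2 differences were 1.45 for Slc25a30, 1.26 for Slc25a33, 0.60 for Slc25a51, 0.56 for Slc25a37, 0.42 for Slc25a1, 0.37 for Slc25a46, 0.35 for Slc25a28, 0.35 for Slc25a11, 0.25 for Slc25a4 and 0.15 for Slc25a39. Slc25a22 was higher than in line 1 by 0.52. Of the lower ones, Slc25a44 stood at -0.80, Slc25a47 at -0.72, Slc25a12 at -0.63, Slc25a38 at -0.45, Slc25a32 at -0.38 and Slc25a26 at -0.37 against line 3. Slc25a16 stood at -0.49, Slc25a20 at -0.36 and Slc25a40 at -0.34 against line 1. Each value is from the pair of lines with the smallest adjusted p.

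Of the other listed genes, 10 were called in opposite directions in different lines against ES cells (no share over all genes is given). Between lines 2 and 3 the differences were 3.33 for Bnip3, 2.58 for Egln3, 2.57 for Ero1a, 2.49 for Vegfa, 1.89 for Hk1, 1.56 for Pfkp, 1.13 for Cpt1a, 1.01 for Tpi1, 0.72 for Aldoa and -0.58 for Timm8a1. The ratio of actin probe sets, Pdgfrb and Tfap2c were highest in the line 2 arrays, and their part was not tested.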

How the results depend on the processing

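Of 134 counts of called members under an alternative, 113 were within 1.5 times the count reported. Centring each array on its median left 1 member in line 1 and 1 in line 3 against ES cells, where the report has 2 (1 higher) and 3 (1 higher); the split was 1 higher in line 1 and 0 higher in line 3. Without an intensity trend limma called 0 members in the mean, 0 in line 1 and 0 in line 3. It then called 6 between lines 2 and 1 and 9 between lines 2 and 3. A fit of line means leaves the ES control with 1 sample, so its count is no result about the members. Leaving out 1 array gave 2 to 7 members in the mean, 0 to 3 in line 1, 11 to 15 in line 2, 0 to 3 in line 3, 7 to 11 between lines 2 and 1, 9 to 16 between lines 2 and 3 and 0 to 1 between lines 1 and 3. Where this left a group with 1 array, that array is assumed to vary like the others.

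Of 57 called differences of members, 15 kept their call under every alternative, among them Slc25a30 and Slc25a51 in line 2 against each other group and Slc25a13, Slc25a16, Slc25a20, Slc25a24 and Slc25a46 in line 2 against ES cells. With the mean of all probe sets, 1 was reversed: Slc25a12 between lines 2 and 1 stood at 0.17. Among the other lists, 41 of 86 called differences kept their call, and Acly in line 3 was reversed to -0.0046 without probe sets that can bind several transcripts. With the replicate number as a block (replicate block), the counts were 6 in the mean, 3, 16 and 3 in lines 1, 2 and 3, 13 and 17 for line 2 against lines 1 and 3, and 0 between lines 1 and 3, and Slc25a39 lost its call between lines 2 and 3 (adjusted p = 0.0543). Correlations of deviations between arrays of the same number ran from -0.01 to 0.03 over 6 pairs of groups, so the numbers were not taken to pair the arrays. With 2 arrays a group, dim members such as Slc25a48 could show only large differences.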
